A study of Mus musculus with 32 samples.

Results

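The CDK inhibitors Cdkn1a, Cdkn1b, Cdkn1c, Cdkn2c and Cdkn2d and the antiproliferative genes Btg1, Btg2, Tob1 and Tob2 were followed in neural stem cells (NSCs) exposed to IFN-β. The 9 genes were matched by symbol, through the GENCODE M21 annotation, to 1 Ensembl row each among the 23035 genes of the footprint tables. In footprints 8 of the 9 passed the filter on low counts (10 or more in 4 libraries or more) in each comparison and were tested, and Cdkn1c did not. The NSCs came from the ventricular-subventricular zone of wild-type C57BL/6 mice aged 8 to 12 weeks. They were grown ex vivo with FGF and EGF, so that they are a culture of dividing cells rather than the resting cells of the tissue. Cultures received vehicle (albumin in saline) or IFN-β for 2 h or for 14 h, which gives 4 groups of 4 cultures, and all of them received cycloheximide, which holds ribosomes on the mRNA, before lysis. Each culture gave 1 library of ribosome-protected fragments (footprints) and 1 of total RNA. All groups share the strain, the wild-type genotype, the age range, the growth factors and the cycloheximide.

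Inhibitors of the Cip/Kip family (Cdkn1a, Cdkn1b and Cdkn1c) bind cyclin-CDK complexes and hold back cell cycle entry, and those of the INK4 family (Cdkn2c and Cdkn2d) bind Cdk4 and Cdk6 and keep D-type cyclins from them. Btg and Tob proteins share an amino-terminal BTG domain through which they bind the deadenylase subunits Cnot7 and Cnot8, and so bring CCR4-NOT to mRNAs whose poly(A) tails are then shortened. In the brain, Cdkn1a, Cdkn1b and Cdkn1c are known for their part in keeping stem cells at rest, and Btg2 is a classical marker of progenitors about to produce neurons.

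Since footprints are short, the coding sequences of related members were compared to learn whether a read could belong to either. Btg1 and Btg2 were identical at 68.7% of 473 aligned bases, and Tob1 and Tob2 at 69.1% of 984. The stretch that holds the longest run identical in Btg1 and Btg2 is shown because an exact match of the 2 is longest there, with the shared run of 17 bases in capitals. It lies in the coding sequence, at chr10:96618456-96618512 (plus strand) in Btg1 and at chr1:134077467-134077523 (minus strand) in Btg2, in GRCm38.
Btg1: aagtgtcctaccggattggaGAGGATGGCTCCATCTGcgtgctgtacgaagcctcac
Btg2: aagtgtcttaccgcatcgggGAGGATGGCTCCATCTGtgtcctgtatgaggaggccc
The run is shorter than a footprint, and for Tob1 and Tob2 the longest was 16 bases. Only exact matches were compared here, so whether a read placed with mismatches could belong to either gene was not tested. Btg1 is the exception among the members with regard to other copies, since 41.1% of the 28-base words of its coding sequence also occur in transcripts of Btg1-ps1, Btg1-ps2 or Gm14519, which were not analysed here. For Tob1 this share was 1.51% and for the other 7 members 0%. How reads with several matches were placed was not stated beyond the aligner's standard options. As far as exact matches go, the footprint level of Btg1 is therefore less certain than that of the other members.

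The promoter windows that RefSeq gives for GRCm38.p6, from 250 bases before a gene's start to 50 after it, were searched on both strands for the core of the interferon-stimulated response element (GAAA, any 2 bases and GAAA again), the GAS element (TTCNNNGAA), the FoxO site (GTAAACA) and the cAMP response element (TGACGTCA). A window was present for 8 members, all but Cdkn1c. None of them held the first or the second, which were in 3.44% and 8.30% of all 32851 windows. The FoxO site, in 3.65% of windows, was found for Btg1, and the cAMP response element, in 1.79%, for Btg2. These 2 windows are shown up to the gene's start because they held the only matches among the members, which stand in capitals.
Btg1, chr10:96616751-96617000, plus strand: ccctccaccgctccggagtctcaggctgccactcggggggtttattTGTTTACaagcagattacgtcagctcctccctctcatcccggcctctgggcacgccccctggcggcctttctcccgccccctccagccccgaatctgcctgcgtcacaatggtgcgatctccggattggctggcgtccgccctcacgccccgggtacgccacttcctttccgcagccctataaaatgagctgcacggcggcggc
Btg2, chr1:134079156-134079405, minus strand: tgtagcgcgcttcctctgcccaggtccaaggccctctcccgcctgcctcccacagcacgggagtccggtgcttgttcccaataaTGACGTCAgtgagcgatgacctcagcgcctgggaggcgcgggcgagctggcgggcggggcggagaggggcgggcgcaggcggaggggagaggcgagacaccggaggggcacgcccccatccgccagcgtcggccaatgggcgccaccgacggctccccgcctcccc
The match of Btg1 begins 204 bases before the start and is the FoxO site read on the other strand. That of Btg2 begins 166 bases before it and reads the same on both strands.

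Footprint libraries held 2956297 to 10505108 counts and total RNA libraries 1370008 to 7877753. The interferon-stimulated genes Ifit3 and Irf7 separated the treatments in footprints, with 37 to 47 counts of Ifit3 under vehicle and 2989 to 5271 under IFN-β at 2 h, and 1 to 3 against 4023 to 15024 at 14 h. All 7 NSC markers were read in every group, at a summed 10508 to 17759 CPM (counts scaled to a library of 1000000). Of the 6 microglia markers, Aif1, Cx3cr1 and C1qa had no count in any footprint library. The other 3, P2ry12, Csf1r and Ptprc, had counts at 14 h in both groups, and 1 of them a mean of at least 50. At 14 h the summed levels of 3 marker lists were above every vehicle library in every IFN-β library. The 6 microglia markers, 3 of them with a count, summed to 5.98 to 8.80 CPM under vehicle and to 21.2 to 26.7 CPM under IFN-β. The 5 oligodendrocyte markers summed to 97.9 to 127 against 218 to 298 CPM, with Mag at 0 under IFN-β, and the 3 ependymal markers to 24.9 to 37.96 against 76.9 to 99.1 CPM. Only 1 of the oligodendrocyte and 2 of the ependymal markers had a mean of at least 50 counts in each group. A sum therefore need not reflect all genes of its list. The 5 neuron markers (49.2 to 58.4 against 51.2 to 65.3 CPM) and the 4 endothelial markers (4.44 to 5.85 against 5.35 to 6.45 CPM) overlapped. At 2 h the groups overlapped for all 6 lists. The part of these shifts in the 14 h results was not tested. In a culture, fewer cells that express a gene and fewer footprints per cell cannot be told apart.

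Under vehicle Cdkn1a was by far the most heavily read of the members. Levels of different genes are given here as CPM per kb of coding length, with the SD over 4 libraries. At 2 h Cdkn1a stood at 718 ± 80.0, above 98.6% of the 11809 coding genes tested, whose median was 20.9. Btg2 (201 ± 132), Cdkn1b (187 ± 35.7), Tob1 (128 ± 19.0), Btg1 (104 ± 21.04), Cdkn2d (74.1 ± 5.60), Cdkn2c (40.3 ± 7.34) and Tob2 (22.9 ± 3.61) followed, and Cdkn1c (0.894 ± 0.726) was close to none. The libraries of Btg2 overlapped those of Cdkn1b, Tob1 and Btg1, and those of Tob1 overlapped those of Btg1, so that these neighbours were not separated beyond their spread. At 14 h the order was Cdkn1a (807 ± 71.4), Cdkn1b (125 ± 11.5), Tob1 (101 ± 3.23), Btg2 (66.9 ± 5.90), Cdkn2d (66.2 ± 5.25), Btg1 (62.2 ± 6.59), Cdkn2c (33.1 ± 5.18), Tob2 (23.2 ± 1.68) and Cdkn1c (0.284 ± 0.186). Here Btg2, Cdkn2d and Btg1 overlapped one another, and the remaining neighbours did not. Levels at 2 h and at 14 h come from tables made separately, and their difference was not tested. Because duplicated reads had been removed, a short and heavily read gene can hold only so many distinct footprints. Cdkn1a reached 2.57 to 9.23 counts per coding base and the other members at most 2.85, and the part of duplicate removal in its values was not tested.

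**Figure D1:**
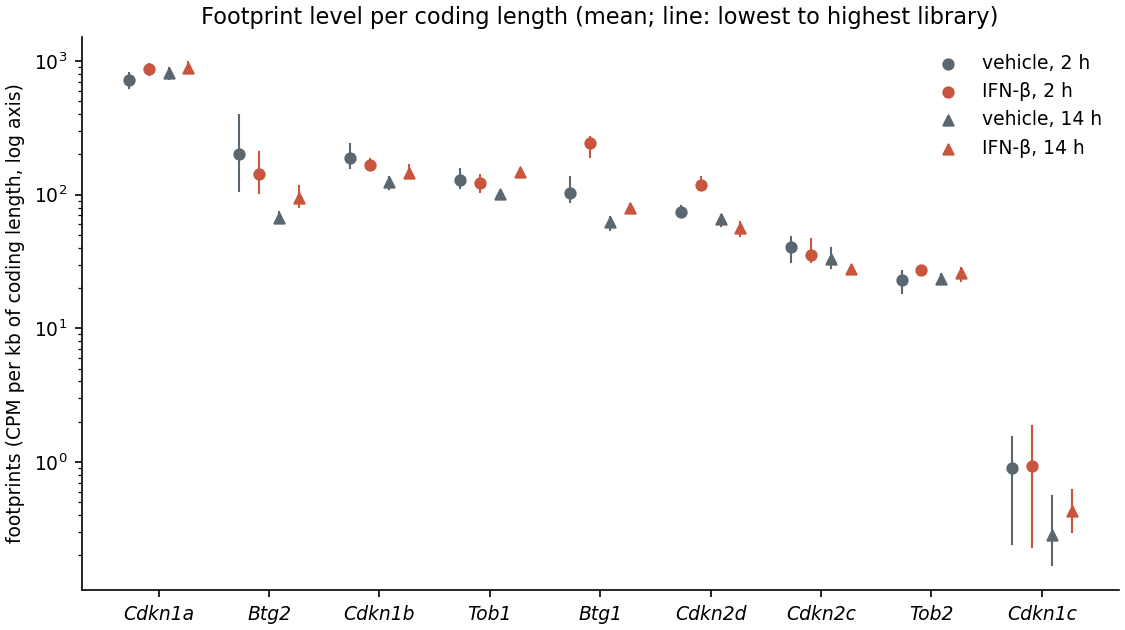
Footprint level of the 9 genes in CPM per kb of coding length (log axis), by treatment and time, with the mean of 4 libraries as the point and the lowest to highest library as the line. Cdkn1a lies highest at 718 under vehicle at 2 h, Tob2 near the median of all genes tested (20.9), and Cdkn1c below 2 in every library.

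After 2 h of IFN-β, footprints rose on Btg1, a cofactor of mRNA deadenylation, and on Cdkn2d, an INK4 inhibitor. The main fit, edgeR's quasi-likelihood test at an adjusted p under 0.05, did not pair libraries of the same replicate number. In it these were the only members called, 2 of 8 tested. Of all 12104 genes tested 7.25% were called, 5.25% higher and 2.01% lower. Btg1 and Cdkn2d were also the only members whose 4 IFN-β libraries all lay above the 4 vehicle libraries, which held for 7.77% of all genes tested. Under a replicate block, which pairs the libraries, 5 members were called, beside 29.2% of all genes. Cdkn1a and Tob2, higher, and Btg2, lower, were then called as well. Fold changes below are IFN-β over vehicle, on the log2 scale unless named as a fold. Since counts are scaled to each library, they are relative to the other genes, and a shift of all footprints together is not seen.

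Btg1 (ENSMUSG00000036478, chr10:96617006-96622809, plus strand), the founding member of the BTG family, was read at 45.5, 69.5, 49.0 and 50.0 CPM in vehicle replicates 2, 3, 5 and 6. The same numbers under IFN-β gave 98.7, 129, 135 and 140 CPM. The lowest treated library was thus above the highest vehicle library, and all 4 pairs of the same number rose. The fitted change was 2.35-fold (log2 1.23, 95% interval 0.87 to 1.59, SE 0.16, adjusted p = 0.0012).

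Cdkn2d (ENSMUSG00000096472, chr9:21288410-21291407, minus strand) encodes the INK4 inhibitor p19-INK4d, which blocks Cdk4 and Cdk6. It was read at 35.3, 36.7, 38.2 and 41.9 CPM under vehicle and at 58.2, 69.8, 56.6 and 59.1 CPM under IFN-β, in the same order of replicates. The vehicle libraries lay close together and all 4 treated ones stood above them. The change was 1.60-fold (log2 0.68, 95% interval 0.46 to 0.89, SE 0.09, adjusted p = 0.0019).

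The remaining members were not called at 2 h in the main fit. Cdkn1a (ENSMUSG00000023067, chr17:29090976-29100727, plus strand), the inhibitor p21 and a classical p53 target, was read at 328, 388, 362 and 301 CPM under vehicle and at 454, 375, 440 and 403 CPM under IFN-β. It was higher in 3 of 4 pairs, lower in replicate 3, and the groups overlapped (log2 0.28, SE 0.10, adjusted p = 0.19). With the replicate number as a block, which is apt here because same-numbered footprint libraries varied together, its change passed the test (log2 0.28, adjusted p = 0.00034). Tob2 (ENSMUSG00000048546, chr15:81848272-81858796, minus strand), a BTG-domain partner of the deadenylase, was higher in 4 of 4 pairs, at 18.9 to 28.1 CPM against 26.1 to 29.5 (log2 0.24, adjusted p = 0.38, and 0.26 with adjusted p = 0.035 under the block). Without vehicle replicate 2 its change was 0.15.

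Btg2 (ENSMUSG00000020423, chr1:134075170-134079120, minus strand), a rapidly induced p53 target, varied most among the members. Vehicle replicates 2, 3, 5 and 6 gave 51.2, 189, 78.7 and 64.7 CPM, and the same numbers under IFN-β 49.0, 99.7, 69.2 and 55.2 CPM. Replicate 3 was the highest of both groups, and each pair was lower with IFN-β, by 0.06 to 0.92 on the log2 scale. The change was -0.49 (SE 0.40, adjusted p = 0.66), or -0.38 under the block (adjusted p = 0.0016), and without vehicle replicate 3 it was 0.07 (adjusted p = 0.95). Its sign at 2 h therefore rests on that library in the unpaired fit.

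Cdkn1b (ENSMUSG00000003031, chr6:134920401-134925513, plus strand), which encodes the Cdk2 inhibitor p27, was read at 93.8 to 142 CPM under vehicle and at 92.3 to 110 CPM under IFN-β (log2 -0.16, adjusted p = 0.67, and -0.020 without vehicle replicate 3). Cdkn2c (ENSMUSG00000028551, chr4:109660876-109667189, minus strand), which encodes the INK4 inhibitor p18, gave 15.9 to 24.3 against 15.8 to 23.5 CPM (log2 -0.19, adjusted p = 0.72, and -0.092 without vehicle replicate 3, -0.28 without vehicle replicate 2 and -0.33 without IFN-β replicate 3). Tob1 (ENSMUSG00000037573, chr11:94211454-94215495, plus strand), another partner of CCR4-NOT, gave 122 to 169 against 113 to 152 CPM (log2 -0.08, adjusted p = 0.86, and 0.03 without vehicle replicate 3). All 3 overlapped between the groups. The 95% intervals still allow changes of -0.46 to 0.14 for Cdkn1b, -0.58 to 0.21 for Cdkn2c and -0.37 to 0.21 for Tob1. Cdkn1c (ENSMUSG00000037664, chr7:143458339-143461050, minus strand), an imprinted inhibitor that encodes p57, had only 2 to 12 counts a library at 2 h and 1 to 6 at 14 h. Its log2 CPM did not differ detectably at this depth (exact permutation test, two-sided, p = 0.8286 at 2 h and 0.171 at 14 h, where 4 against 4 libraries cannot go below 0.0286).

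**Figure D2:**
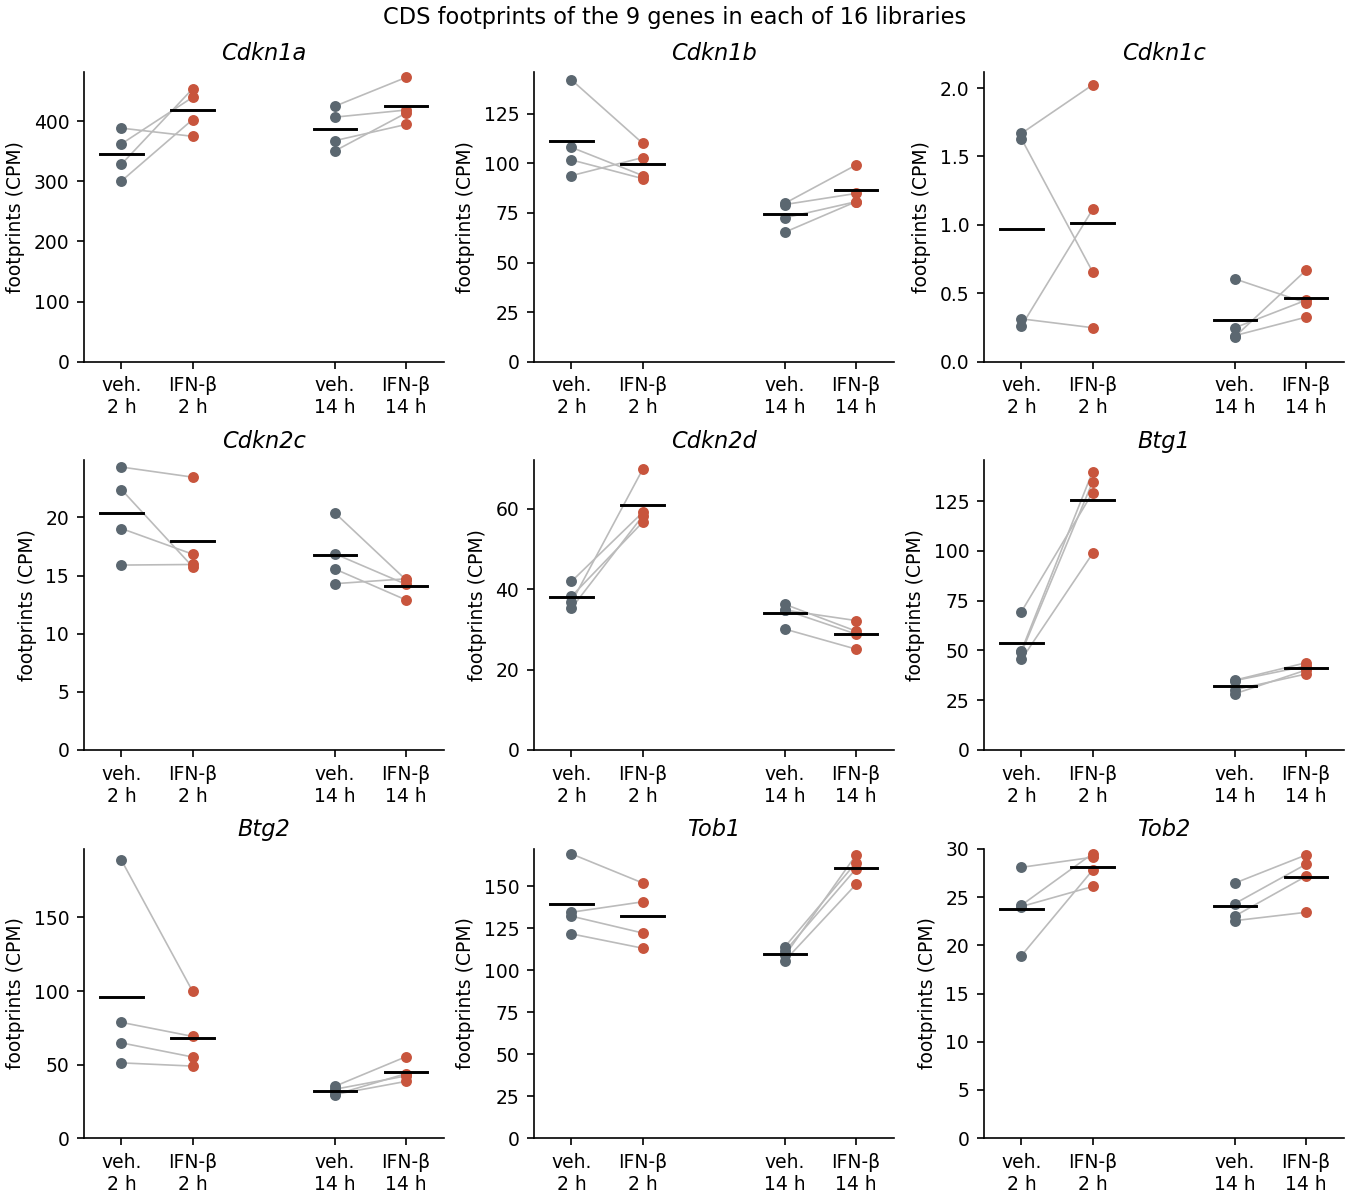
Footprints of the 9 genes in CPM (each axis from 0) in the 16 libraries, with vehicle in grey, IFN-β in red, the group mean as a bar and thin lines between libraries of the same replicate number. Btg1 and Cdkn2d separate the groups at 2 h, Btg1, Btg2, Tob1 and Cdkn1b at 14 h, and vehicle replicate 3 at 2 h stands at 189 CPM for Btg2.

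After 14 h the members with more footprints were 3 Btg and Tob genes and 1 inhibitor. In the main fit, without pairing, Tob1, Btg2, Btg1 and Cdkn1b were called, all of them higher, and no member was called lower. These 4 of 8 lie near the background of this comparison, in which 52.5% of all 12113 genes tested were called, 26.2% higher and 26.3% lower, so the number called is no result about the members. Their 4 IFN-β libraries all lay above the 4 vehicle libraries, which was so for 22.4% of all genes tested, while the groups did not overlap in either direction for 46.2%. The median change of the 8 was 0.20, beside 0.00 over all genes tested. Under the replicate block all 8 members were called, 6 higher and 2 lower, beside 62.8% of all genes.

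Tob1 had the largest change of the members at 14 h. Vehicle replicates 1 to 4 gave 109, 111, 106 and 114 CPM and the same numbers under IFN-β 169, 160, 151 and 164 CPM. The spread within either group was small beside the gap between them. The change was 1.46-fold (log2 0.55, 95% interval 0.43 to 0.66, SE 0.05, adjusted p = 2.4e-06).

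Btg2 was read at 29.5, 29.7, 33.3 and 35.3 CPM under vehicle and at 43.8, 38.6, 42.3 and 55.4 CPM under IFN-β. Unlike at 2 h, the vehicle libraries lay close together, and every pair was higher with IFN-β. The change was 1.42-fold (log2 0.50, 95% interval 0.26 to 0.74, SE 0.11, adjusted p = 0.0020).

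Btg1 was read at 28.2, 30.3, 34.9 and 35.1 CPM under vehicle and at 40.2, 38.2, 42.2 and 43.8 CPM under IFN-β. It was still above vehicle in 4 of 4 pairs, by 1.28-fold (log2 0.35, 95% interval 0.17 to 0.54, SE 0.09, adjusted p = 0.0039). Cdkn1b was read at 65.3, 72.5, 79.2 and 79.8 CPM under vehicle and at 80.6, 80.6, 84.8 and 99.1 CPM under IFN-β, so that the groups came close without overlapping. Its change of 1.17-fold (log2 0.22, 95% interval 0.04 to 0.40, adjusted p = 0.038) passed the test narrowly. The call was lost without IFN-β replicate 3 (log2 0.23, adjusted p = 0.061) or 4 (0.14, adjusted p = 0.14) and without vehicle replicate 1 (0.17, adjusted p = 0.083) or 2 (0.21, adjusted p = 0.084).

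Both INK4 members were lower with IFN-β at 14 h, without passing the test in the main fit but passing it under the block. Cdkn2d, which had risen at 2 h, was read at 30.1, 34.8, 36.2 and 34.8 CPM under vehicle and at 25.1, 28.8, 29.6 and 32.2 CPM under IFN-β. All 4 pairs were lower, while the groups as wholes overlapped (log2 -0.22, SE 0.09, adjusted p = 0.052, and -0.22 with adjusted p = 0.0090 under the block). Cdkn2c gave 14.3 to 20.4 CPM under vehicle and 12.9 to 14.7 CPM under IFN-β (log2 -0.27, SE 0.12, adjusted p = 0.077, and -0.28 with adjusted p = 0.021 under the block). Without vehicle replicate 2, its highest library, the change was -0.15 (adjusted p = 0.29). Cdkn1a, at 350 to 425 against 394 to 473 CPM, was higher in 4 of 4 pairs by a small amount (log2 0.13, adjusted p = 0.15, and 0.13 with adjusted p = 0.0048 under the block). Without IFN-β replicate 4 or vehicle replicate 1 it was 0.080 or 0.088. Tob2 was likewise higher in 4 of 4 pairs, at 22.6 to 26.5 against 23.4 to 29.4 CPM (log2 0.18, adjusted p = 0.097, and 0.18 with adjusted p = 0.049 under the block).

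The difference between the responses at the 2 times was itself tested, by an interaction term fitted to all 16 footprint libraries, which are those of both comparisons above. Btg1 and Cdkn2d had a smaller response at 14 h than at 2 h, and Tob1 a larger one. The libraries of the 2 times come from tables made separately, with replicate numbers that only partly match. Exposure time and set of libraries therefore cannot be told apart here. These 3 of 8 members were called, beside 30.9% of 12508 genes, 15.4% higher and 15.5% lower. For Cdkn2d the difference was -0.89 on the log2 scale (95% interval -1.17 to -0.61, adjusted p = 0.00011), from a called value of 0.68 at 2 h to one of -0.22 at 14 h that was not called. For Btg1 it was -0.87 (-1.26 to -0.48, adjusted p = 0.0023), with the response above 0 at both times. For Tob1 it was 0.64 (0.34 to 0.94, adjusted p = 0.0027). Btg2 (1.00, 0.04 to 1.96, adjusted p = 0.11) and Cdkn1b (0.39, 0.04 to 0.73, adjusted p = 0.082) also had larger values at 14 h without passing the test. Both passed under the block (0.89 with adjusted p = 3.4e-06, and 0.36 with adjusted p = 0.0012), under which 55.5% of all genes were called. Both also passed without IFN-β replicate 3 at 2 h (1.23 and 0.44) or without vehicle replicate 2 at 2 h (1.22 and 0.47). Without vehicle replicate 3 at 2 h the values were smaller, at 0.45 for Btg2 (adjusted p = 0.24) and 0.25 for Cdkn1b (adjusted p = 0.15). For Cdkn1a (-0.13, -0.41 to 0.15), Cdkn2c (-0.06, -0.53 to 0.40) and Tob2 (-0.06, -0.38 to 0.26) no difference was detected, and the intervals allow differences up to the bounds given.

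**Figure D3:**
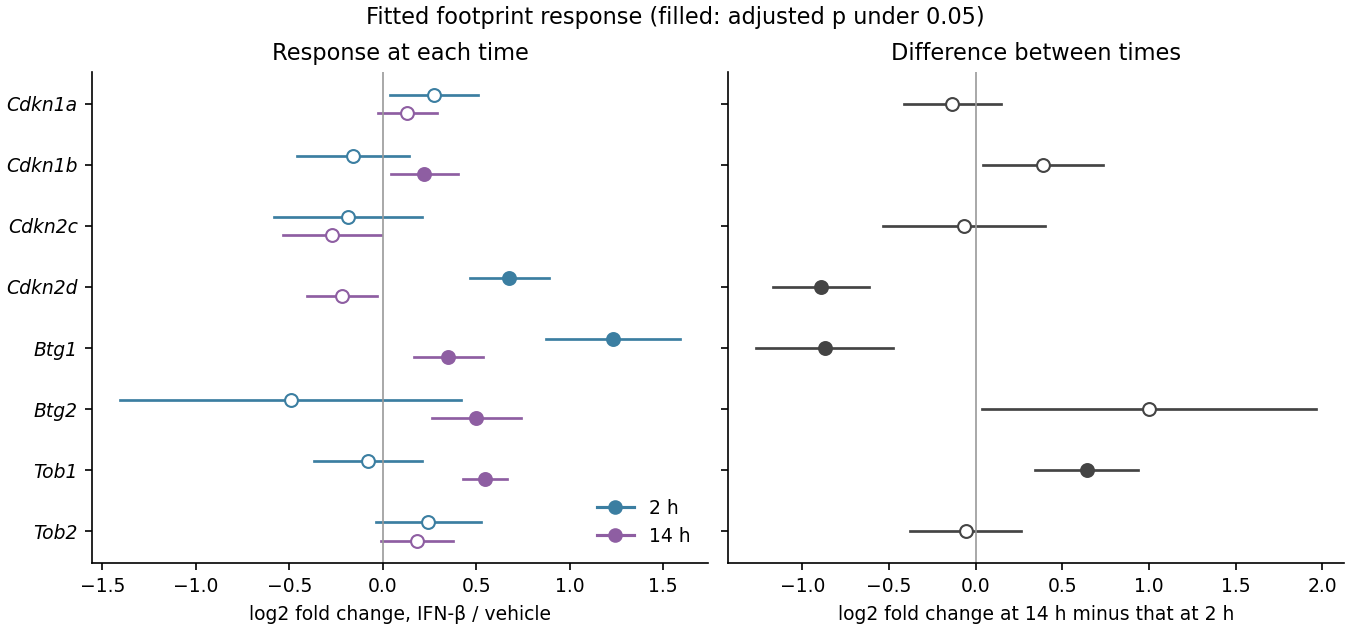
Fitted log2 fold change in footprints (IFN-β over vehicle) of the 8 members tested, at 2 h and at 14 h on the left and the difference between the times on the right, with 95% intervals and filled points for an adjusted p under 0.05. In the main fit, which does not pair libraries, Btg1 (1.23) and Cdkn2d (0.68) are called at 2 h and Tob1, Btg2, Btg1 and Cdkn1b at 14 h. Cdkn2d, Btg1 and Tob1 differ between the times.

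Total RNA gave little on these genes. At 14 h every member except Cdkn1a (14 to 50 counts a library) and Cdkn2c (2 to 14) had at most 5 total RNA counts in any library, against 70 or more footprints for Btg1, Btg2, Tob1, Tob2, Cdkn1b and Cdkn2d. Total RNA was made with a kit that keeps the strand, and the strand setting of the counting was not stated. Among protein-coding genes with a mean of at least 50 footprints, those with no annotated gene on the other strand had a median of 4.00 total RNA counts at 14 h (n = 5503) and those whose exons overlap a gene on the other strand 12.6 (n = 3209), although their median footprints were alike (336 and 326). At 2 h the medians were 12.2 and 33.6. Cdkn1a is itself overlapped by AC167363.2 on the other strand, over 273 exonic bases, so that its total RNA counts cannot be ascribed to either gene. Tob2 is likewise overlapped by Gm49476 over 289 exonic bases, and for both genes the overlap lies outside the coding sequence. Cdkn1c is overlapped by Gm44732 over 625 exonic bases, all of them in its coding sequence. The part of that overlap in the footprint counts of Cdkn1c was not tested.

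With this limit, edgeR could test 2 members in total RNA at 2 h and called neither, beside 0.799% of 11639 genes (0.722% higher and 0.0773% lower). Cdkn1a changed by 0.22 (SE 0.26) and Cdkn2c by -0.26 (SE 0.37), both with an adjusted p of 0.999. At 14 h Cdkn1a alone was tested (log2 -0.19, SE 0.24, adjusted p = 0.73), beside 6.3% of 7520 genes called (3.47% higher and 2.83% lower). None of these had an unadjusted p under 0.05, and DESeq2 called 0 as well. Translation efficiency (TE) is the change in footprints relative to that in total RNA. Its filter on low counts ran over both kinds of library together. Members too low for a test in total RNA thus entered through their footprints, and for them a missing call is no result. At an adjusted p under 0.1 TE was called for 0 of 8 members at 2 h and 0 of 8 at 14 h. Of all genes 0.815% were called at 2 h (0.581% higher and 0.234% lower) and 8.49% at 14 h (4.54% higher and 3.95% lower). No member had an unadjusted p under 0.05 for TE in edgeR, and DESeq2 called 0 at both times. For Cdkn1a the change in TE was 0.10 (95% interval -0.50 to 0.70) at 2 h and 0.27 (-0.21 to 0.75) at 14 h. For the other members the SE of the change in TE ran from 0.40 to 0.94, so that changes of the size seen in their footprints were not detectable in TE. The footprint changes above therefore do not separate more mRNA from more ribosomes per mRNA.

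The genes around the members were described by lists, by how many were called and by their median change, beside the median of all genes tested (-0.02 at 2 h and 0.00 at 14 h). The lists were chosen with earlier results of these data known, so their shares are a description and not a test. Among the other inhibitors and Btg genes, Cdkn2b, the INK4 inhibitor p15, was 1.48-fold higher at 14 h (log2 0.57, adjusted p = 0.0012), at 11.004 to 12.1 CPM under vehicle and 14.9 to 20.4 CPM under IFN-β. At 2 h it was higher by a like amount without passing the test (log2 0.60, adjusted p = 0.077), and it passed under the block (adjusted p = 0.00045), by DESeq2 (0.61, adjusted p = 0.022) and without IFN-β replicate 3 (0.74, adjusted p = 0.0073). Cdkn2a, a locus that encodes an INK4 inhibitor and the p53 activator Arf in overlapping frames, which counts per gene do not separate, was 1.21-fold higher at 14 h (log2 0.27, adjusted p = 0.0072). Btg3 (log2 0.40, adjusted p = 0.28) had 19 to 42 footprints a library at 14 h, and Btg4 at most 1 at either time. Of the 3 genes tested 2 were called at 14 h, beside 52.5% of all genes, and 0 at 2 h, where the block called 1, beside 29.2% of all genes. With 3 genes these counts are no result about the list.

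Among the cyclins and CDKs, on which the inhibitors act, most had fewer footprints at 14 h. Of 12 genes 9 were called lower, beside 26.3% of all genes, and 1, Cdk6, higher (log2 0.69, adjusted p = 3e-05), with a list median of -1.01. Ccne2, an E-type cyclin that activates Cdk2 at S phase entry, went from 76.8 to 81.6 CPM under vehicle to between 7.70 and 12.6 CPM, 6.80-fold lower (adjusted p = 4.4e-11). Cdk1, the mitotic kinase, was 2.72-fold lower and Ccne1 2.71-fold lower. At 2 h none of the 12 was called in edgeR, the list median was -0.02, and the block called 2 higher, beside 29.2% of all genes called.

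Of 11 genes of the ligases that mark CDK inhibitors for destruction 5 were called lower and 1 higher at 14 h, a share near the 52.5% of all genes called, with a list median of -0.11. None was called at 2 h, where the block called 1 lower, beside 29.2% of all genes called. Dtl, the receptor by which the Cul4 ligase recognises p21, fell 4.46-fold (adjusted p = 2.5e-09), at 55.9 to 70.2 CPM under vehicle and 12.0 to 16.5 CPM under IFN-β. Skp2 and Cks1b, which together recognise p27, fell 2.77-fold and 2.25-fold. Skp1a (log2 -0.46, adjusted p = 0.00022) and Cul1 (-0.21, adjusted p = 0.025), the adaptor and the scaffold of the Skp2 ligase, were called lower as well. Cul4a (0.02) and Cul4b (-0.02), scaffolds of the Dtl ligase, were not called. The gene called higher was Rnf123, a subunit of another ligase for p27 (0.41, adjusted p = 0.00063). The footprints on Cdkn1a and Cdkn1b, which encode p21 and p27, differed by at most 1.21-fold between the group fits at either time.

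Of 15 genes of the p53 pathway 9 were called higher, beside 26.2% of all genes, and 1 lower at 14 h, with a list median of 0.22. The gene that was lower was Trp53 itself (log2 -0.45, adjusted p = 0.00072), at 91.0 to 116 CPM under vehicle and 71.6 to 88.1 CPM under IFN-β. Trp53inp1, a stress-induced partner of p53, was 1.39-fold higher (adjusted p = 7.9e-06), and Sesn2, a sestrin that restrains mTORC1, 1.36-fold higher (adjusted p = 0.00016). At 2 h the 2 genes called, named here after their values were seen, were Gadd45a, a growth arrest gene, higher (log2 0.61, adjusted p = 0.0026), and Sesn2, lower (log2 -0.39, adjusted p = 0.032). The call of Sesn2 was lost when any library but vehicle replicate 6 was left out (log2 -0.43 to -0.35). The block called 2 higher and 5 lower at 2 h. Of all genes 7.25% were called at 2 h in the main fit and 29.2% under the block. The response of Sesn2 differed between the times (0.85, adjusted p = 6.2e-05).

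Of 14 genes of the deadenylases that Btg and Tob proteins recruit 2 were called higher and 4 lower at 14 h, a share below the 52.5% of all genes called, with a list median of -0.05. The catalytic subunits that bind the BTG domain, Cnot7 (log2 -0.23, adjusted p = 0.092) and Cnot8 (0.13, adjusted p = 0.074), were not called. The largest change was on Tnks1bp1, a CCR4-NOT-associated tankyrase-binding protein, 2.48-fold higher at 14 h (adjusted p = 3.2e-09) and the only gene of the list called at 2 h (log2 0.36, adjusted p = 0.030). That call was lost with total counts alone (0.32), with no filter (0.35), and without IFN-β replicate 5 or 6 or any 1 vehicle library (0.32 to 0.39). The subunit Cnot9 was 1.404-fold lower and Pan2, the catalytic subunit of the other deadenylase, 1.37-fold lower at 14 h. Of the FoxO factors, which drive Cdkn1b and Cdkn2d in several cell types, Foxo4 (log2 0.48, adjusted p = 0.0015) and Foxo3 (0.25, adjusted p = 0.0090) were higher at 14 h, and Foxo1 (-0.03) and Foxo6 (0.06) were not called, so that 2 of 4 were called beside 52.5% of all genes. None of the 4 was called at 2 h, where the list median was -0.32 and the block called 1 lower, beside 29.2% of all genes called.

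**Figure D4:**
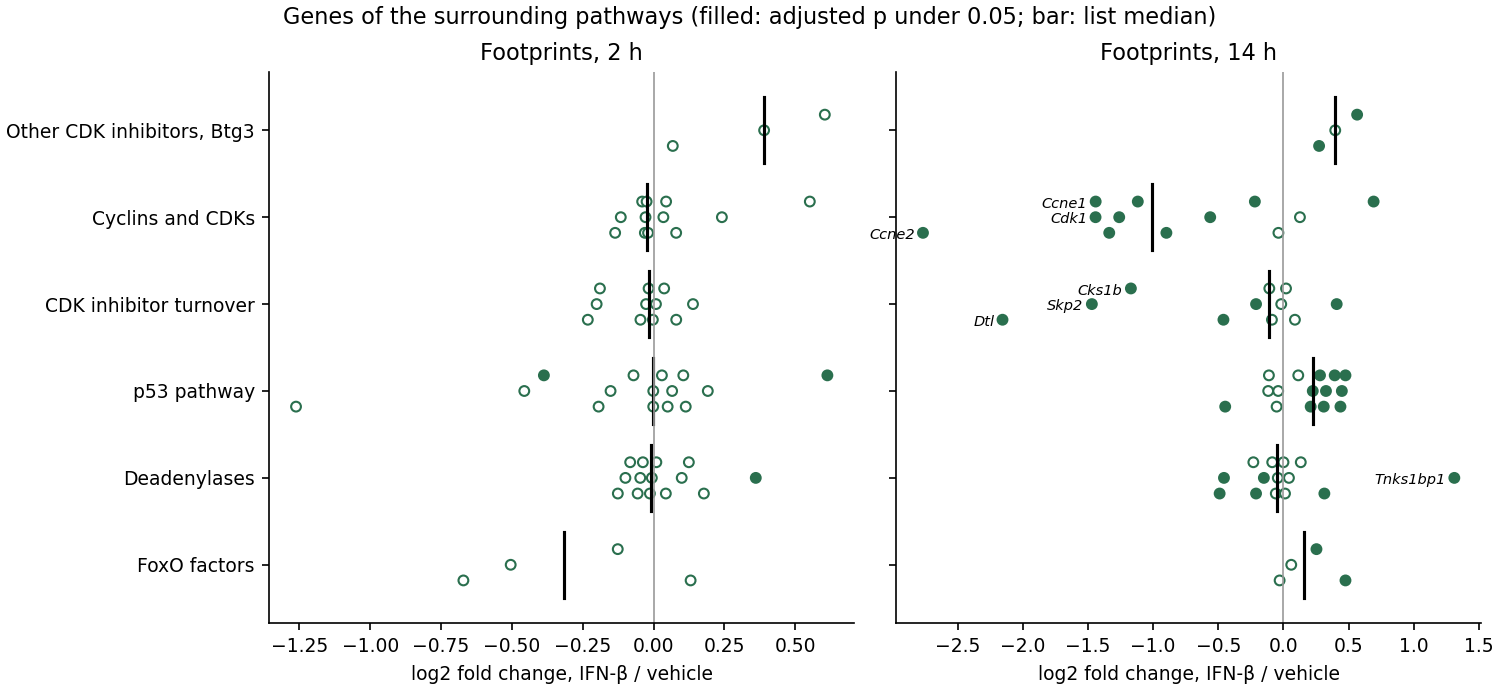
Log2 fold change in footprints (IFN-β over vehicle) of the genes tested in 6 lists around the members, at 2 h and 14 h, each point a gene (filled for an adjusted p under 0.05) and the bar the list median. At 14 h the cyclins and CDKs have a median of -1.01, Dtl, Skp2 and Cks1b lie lowest among the turnover genes, and Tnks1bp1 highest among the deadenylase genes.

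The genes whose footprints followed those of 2 members most closely were named by the Pearson correlation of log2 CPM, relative to the vehicle mean of each time, over 16 libraries and among 10261 genes. As the libraries share treatment, time and depth, this is a description only. Nearest to Btg1 were Susd6 (r = 0.956), Il4ra (0.955) and Sbno2 (0.953), with changes of 1.11, 1.74 and 3.18 at 2 h and of 0.44, 0.52 and 0.83 at 14 h, so that in each the value at 2 h was the larger. Among the genes nearest to Tob1 were App (0.986) and Vps11 (0.976), at -0.04 and -0.09 at 2 h and at 0.55 and 0.56 at 14 h.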

How the data were processed

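Footprints and total RNA were measured by Ribo-Seq in the libraries described above. Per the labels and the study's methods, the authors trimmed reads with Trim Galore 0.4.4, mapped them with Bowtie 0.12.7 to the mm10 transcriptome (GRCm38, Ensembl release 93), removed duplicates and deposited raw counts per gene, in the CDS for footprints and in the whole gene body for total RNA. The strand setting of the counting is not given in the sources used here. Removing duplicates without molecular identifiers lowers heavily read short genes, and intervals cover the spread between libraries. Each of the 32 columns was mapped to a sample by its label (0 were left out), and no 2 libraries of a table were identical. Per the methods, replicates are different mice or cultures from different mice.

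Counts were tested with edgeR 4.0.16 in R 4.3.3 (TMM, quasi-likelihood, two-sided, Benjamini-Hochberg over all genes tested) after a filter of at least 10 counts in at least 4 libraries, and calls were made below an adjusted p of 0.05. For TE, an interaction of library kind and treatment, the threshold was 0.1. TE in the methods used DESeq2, which is an alternative here (DESeq2 1.42.0). CPM are counts divided by the library size times its TMM factor and scaled to 1000000, with a pseudocount of 0.5 CPM where log2 CPM was used. The fitting was tested on simulated counts with the same dispersion for every gene and no replicate effect, so that test does not cover the pairing of these libraries. Alternatives were DESeq2, total counts without TMM, no filter, a mean of at least 50 counts, the replicate block and leaving out each library. Same-numbered vehicle and IFN-β footprint libraries deviated together from their group means (r = 0.345 to 0.821 at 2 h and 0.203 to 0.434 at 14 h), so the titles' numbers were taken to pair them, and total RNA libraries did not (-0.483 to 0.389). The main fit left this pairing out, and only the replicate block used it. Symbols and positions are from GENCODE M21, which held 22205 of the 23035 footprint genes, coding length is the merged CDS, and promoters are RefSeq's. Members and gene lists were chosen with earlier results of these data known. Genes named from a list were the 3 called genes with the largest change in footprints at 14 h, or all of a list of 4, besides those named for a count or a role in the text. The lists were other inhibitors and Btg genes, cyclins and CDKs, CDK inhibitor turnover, the p53 pathway, CCR4-NOT and PAN deadenylases, FoxO factors, and markers of NSCs, neurons, oligodendrocytes, microglia, endothelium and ependyma. Python 3.11.15 with the libraries pandas, scipy, matplotlib and Biopython was used for the rest. Values of 2 genes that the rules for named genes would include are not reported here.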

Additional observations from a re-analysis of the deposited data

Results flagged for a closer look

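The response to IFN-β differed between 14 h and 2 h, by the interaction term, for Cdkn2d (-0.89 on the log2 scale), Btg1 (-0.87) and Tob1 (0.64), with 4 libraries a group. In 2 of 36 groups of 4 libraries 1 library lay apart from the other 3, which chance gives in about 1 of 20 groups. Cdkn2c stood at 23.5 CPM in IFN-β replicate 3 at 2 h, the highest of its group. Cdkn1c stood at 0.606 CPM in vehicle replicate 2 at 14 h, the highest of its group, on 6 counts.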

How the results depend on the processing

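Btg1 and Cdkn2d at 2 h and Tob1, Btg2 and Btg1 at 14 h kept their direction and call under every alternative run. The replicate block raised the members called from 2 to 5 at 2 h, from 4 to 8 at 14 h and from 3 to 5 in the difference between the times. It raised all genes called from 878 to 3538 at 2 h, from 6361 to 7609 at 14 h and from 3867 to 6944 in that difference. Without 1 library the difference gave 3 to 5 members, 5 without IFN-β replicate 3 or vehicle replicate 2 at 2 h. At 14 h Cdkn2d also passed with total counts alone and with no filter (-0.23 in both), and with IFN-β replicate 4 (-0.27) or vehicle replicate 1 (-0.26) left out, as did Cdkn2c without vehicle replicate 1 (-0.33) and Tob2 without IFN-β replicate 1 (0.22) or vehicle replicate 4 (0.24).

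All genes called ran, without 1 library, from 517 to 953 in footprints at 2 h (517, 563 and 575 without IFN-β replicates 5, 2 and 6), from 30 to 74 in total RNA at 2 h (93 with all, and 30, 33, 40 and 57 without IFN-β replicates 2, 5 and 6 and vehicle replicate 5), from 171 to 450 in total RNA at 14 h (474 with all, and 171, 213, 271 and 265 without IFN-β replicates 1 to 4), and from 67 to 151 for TE at 2 h (115 with all, and 67 and 73 without replicate 5 of IFN-β and of vehicle). In total RNA at 2 h DESeq2 called 169, no filter 174 and a mean of at least 50 counts 44. In total RNA at 14 h total counts alone called 273 and a mean of at least 50 counts 247. For TE at 2 h DESeq2 called 262, total counts alone 55 and a mean of at least 50 counts 27, and for TE at 14 h total counts alone called 709 and a mean of at least 50 counts 382 (1141 in edgeR). With that mean no member was tested in total RNA or TE at 14 h.

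Signs turned only for values that were not called in the main fit. Among them Btg2 at 2 h was called lower under the replicate block (-0.38, adjusted p = 0.0016). Without 1 library Btg2 at 2 h ran from -0.73 to 0.069, Tob1 at 2 h from -0.15 to 0.027, the difference between the times from -0.16 to 0.075 for Cdkn2c and from -0.14 to 0.048 for Tob2, TE of Cdkn1a at 2 h from -0.014 to 0.18, total RNA of Cdkn2c at 2 h from -0.62 to 0.00082, and at 14 h Foxo1 from -0.057 to 0.042 and Foxo6 from -0.19 to 0.36. TE of Cdkn1a at 2 h was -0.25 with total counts alone, and Foxo6 at 14 h -0.026 by DESeq2. The cause was not tested. Low counts kept most members from a test in total RNA, although at 2 h these libraries held 3992402 to 7877753 counts, and kept Cdkn1c from one in footprints. The part of the strand setting in the low total RNA counts was not tested.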
